A study of Homo sapiens with 10 samples.

Results

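Translation factors load ribosomes onto mRNA, move them along the coding sequence and release them at the stop codon. The genes described here are the human protein-coding genes whose symbol starts with EIF or EEF and a digit, together with the release factors ETF1 and GSPT1 and the poly(A) binding proteins PABPC1 and PABPC4. Enzymes that only modify these factors, such as the eIF2 kinases, were left out, as were pseudogenes and Y-linked copies. The rule uses symbols and no measured value. It gave 63 genes in GENCODE v29, of which 62 are among the 59204 genes of the deposited tables, and EIF4EBP3 was not analysed here. A read was counted for 61 of the 62, the exception being EIF2S3B, a copy of the eIF2 gamma gene. The minimum mean count of 20 per library was met by 57 of them in total RNA, among 11797 genes, and by 53 in labelled RNA, among 8817 genes.

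The samples are K562 cells, an established line from chronic myeloid leukaemia. All cultures first received 30 µM 4-thiouridine for 12 h, so that RNA made in that time carries the label, and were then washed and given 3 mM uridine to end the labelling. The arms of this chase differed in what was added with the uridine, which was 1 µM AZ-5576 (an inhibitor of CDK9, the kinase that releases paused RNA polymerase II), 1 µM JQ1 (an inhibitor of the BET bromodomain proteins) or the solvent DMSO. Each arm has a library at 2, 4 and 8 h, and the library at 0 h is the common start of the 3 arms. In the sentences below the 3 values of an arm are those at 2, 4 and 8 h. Each condition has 1 library, so no difference has a replicate check, and a p-value here measures only how far libraries scatter around the fitted time course.

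Initiation begins when eIF2 brings the initiator tRNA to the small ribosomal subunit, to which eIF1, eIF1A, eIF3 and eIF5 are also bound. The eIF4 factors bind the cap and unwind the leader of the mRNA, and poly(A) binding protein joins them from the tail. After the start codon is found eIF5B joins the large subunit, the eEF1 and eEF2 factors carry the ribosome along, and eRF1 with eRF3 ends the chain. Many elongation factor mRNAs, like ribosomal protein mRNAs, start with a C followed by pyrimidines, the 5′ terminal oligopyrimidine (TOP) tract through which mTOR controls their translation.

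The starts of 10 members are printed to show which carry such a tract at the annotated start and which do not. They are the TOP mRNAs of elongation and initiation that have a window in the RefSeq table, with EIF1AD, EIF5B, EIF2B2 and EIF4A3. The latter genes had the lowest AZ-5576 slope differences below among members with a mean count of at least 100. Because these were picked by slope, the printed lines cannot show whether a tract goes with the slope. EIF2A, EIF2D, EIF2S3, EIF3D, EIF3M and EIF4A2 also have a tract and were called lower below, while EIF3K has one and was not called. Each line runs 5′ to 3′ from 20 bases before to 15 bases from the annotated gene start (RefSeq, GRCh38.p14), with capitals for the C at the start and the unbroken C or T run after it where that run has at least 4 bases.
EEF1A1: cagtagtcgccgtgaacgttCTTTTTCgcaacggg
EEF1B2: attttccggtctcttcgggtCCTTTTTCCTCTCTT
EEF2: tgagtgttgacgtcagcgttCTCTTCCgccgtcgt
EIF3F: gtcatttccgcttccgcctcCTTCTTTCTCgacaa
EIF4B: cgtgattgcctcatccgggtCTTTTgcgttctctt
EEF1G: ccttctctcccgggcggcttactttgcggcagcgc
EIF1AD: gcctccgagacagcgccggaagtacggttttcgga
EIF5B: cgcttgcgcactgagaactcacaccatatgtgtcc
EIF2B2: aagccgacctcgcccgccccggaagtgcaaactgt
EIF4A3: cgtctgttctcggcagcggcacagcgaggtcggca

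The plus strand holds EEF1B2 (chr2:206159875-206159909), EIF3F (chr11:7987317-7987351), EIF4B (chr12:53006436-53006470), EIF5B (chr2:99337369-99337403) and EIF2B2 (chr14:75002901-75002935). The minus strand holds EEF1A1 (chr6:73521018-73521052), EEF2 (chr19:3985449-3985483), EEF1G (chr11:62573877-62573911), EIF1AD (chr11:66002143-66002177) and EIF4A3 (chr17:80147114-80147148). Of the 62 listed members 50 have a window in this table. Counting a gene when any of its annotated starts has a tract as defined above, 13 of the 50 had one (26.0%), against 8.00% of 8120 tested genes with a window and 5.14% of all 27305 genes with a window. EEF1B2 and EIF2S3B each have a further annotated start without a tract, and the EEF1B2 line shows the start that has it. EEF1G is known as a TOP mRNA, yet its annotated start is an A. A match is a description of the annotated start, and none of these data mapped the start in K562 cells.

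Levels are given as a gene's reads per 1000000 fly reads of the same library. RNA of fly cells had been added at 5% to the purified RNA, so a level is relative to the mass of RNA and not to the number of cells. Changes in the number of cells or in the RNA per cell are not measured by it. The libraries are 3′ end libraries, in which a read count does not scale with transcript length. A library held between 10293371 and 16008906 total reads. Of labelled reads it held between 2031796 and 3868420, and of fly reads between 1208073 and 2366155. The labelled reads are those of the deposited nascent table, and the sources used here do not give the rule that called them. Erythroid genes that mark K562 cells were abundant in all libraries (HBG1 from 59843 to 96862 reads), while among markers of other cell types CD3E, MS4A1 and ALB had at most 8, COL1A1 6 to 68 and EPCAM 374 to 902. The AZ-5576 library at 2 h had the widest spread of fly genes about their own medians (median absolute deviation 0.222 log2, against 0.066 to 0.159 in the others).

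Under AZ-5576 most translation factor mRNAs fell behind DMSO per fly read, with most initiation factors and few elongation factors past the test. A count model with a common 0 h level and a log2 slope over the hours for each arm was fitted. The slope of AZ-5576 minus that of DMSO was tested with edgeR's quasi-likelihood test at a Benjamini-Hochberg adjusted p of 0.05. It was called lower for 42 of the 57 members (73.7%) and higher for 0, while 73.3% of all tested genes were called lower and 0.559% higher, so the members' share was close to that of all genes. No member was higher at an unadjusted p under 0.05 or by DESeq2. The median slope difference was -0.16 log2 per hour over the members and -0.19 over all genes. TMM scaling, which sets the bulk of human genes level instead of the fly reads, put the median of all genes at -0.020 and that of the members at 0.017. It called 9 members lower and 21 higher, against 27.6% and 20.6% of all genes. The 9 were EIF1AD, EIF4ENIF1, EIF5B, EIF2B2, EIF4G3, EIF4A3, EIF3A, EIF2S2 and EIF4G2. The count of lower members was 18 without the AZ-5576 8 h library and 13 without the 8 h libraries of all arms.

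The ratios of single libraries show when the gap opened. Over the 57 members the median log2 ratio of AZ-5576 to DMSO was -0.21, -0.43 and -1.37 at the 3 times, and over all genes it was -0.25, -0.67 and -1.63. At 8 h 56 of the 57 members stood below DMSO, the exception being EEF1A2, and 94.0% of all genes did. Against the 0 h library all 57 were below at 8 h in AZ-5576 (median -0.82), and 42 of 57 were above it in DMSO (median 0.37).

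**Figure D1:**
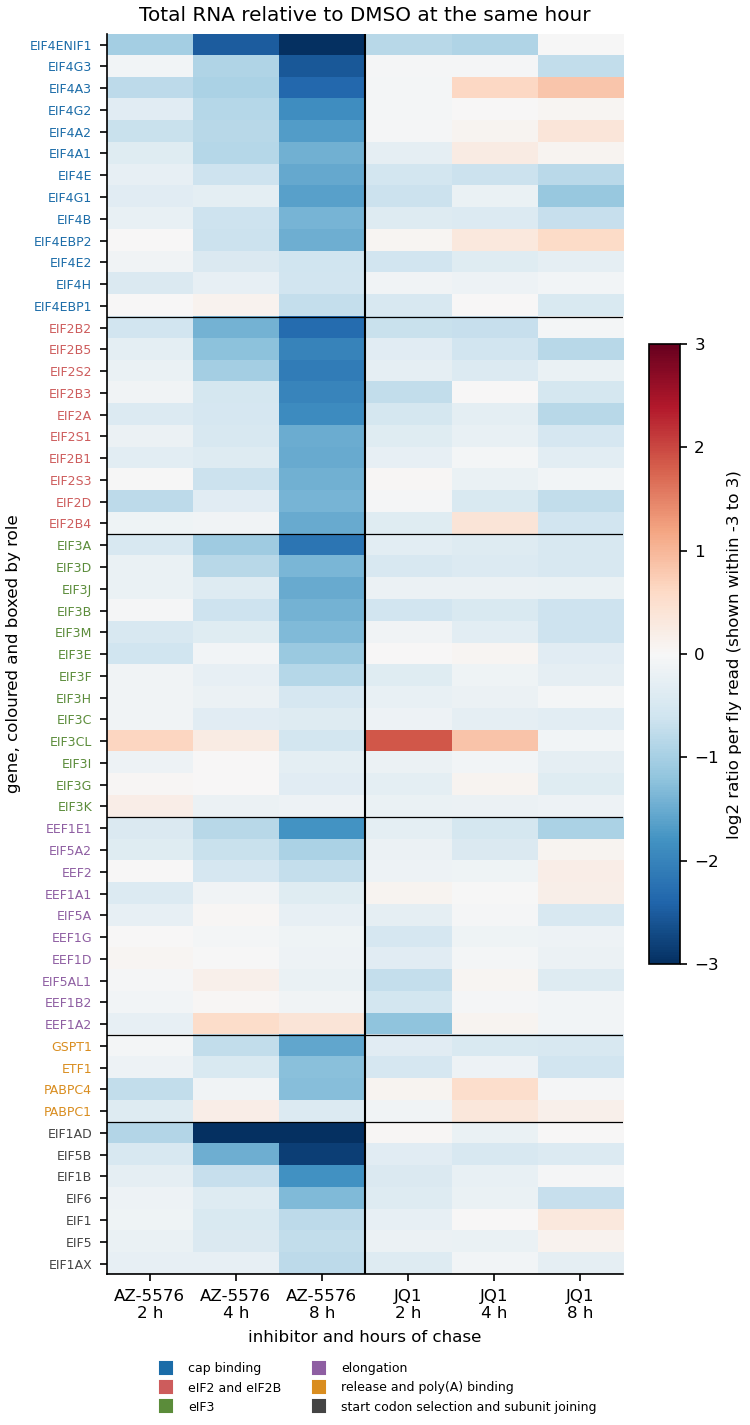
Log2 ratio of the level (reads per 1000000 fly reads) in AZ-5576 and JQ1 to DMSO at the same time, for the 57 tested members in rows grouped by role and for 2, 4 and 8 h in columns, with colours held within -3 and 3. The AZ-5576 columns darken with time in all groups but elongation, where most genes stay near 0 per fly read, and TMM scaling would shift a whole column by 1 constant.

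Start codon selection and subunit joining were covered by 7 tested genes. EIF1 and its close relative EIF1B, EIF1AX and EIF5 keep the scanning ribosome accurate, EIF5B joins the subunits, EIF6 keeps the large subunit from joining too early, and EIF1AD is a protein with an eIF1A-like domain. The AZ-5576 slope was called lower for 7 of 7 per fly read (median -0.15), against 73.3% of all genes (median -0.19). With TMM scaling it was lower for EIF1AD and EIF5B and higher for EIF1, EIF1AX and EIF5, against 27.6% and 20.6% of all genes. EIF1AD had a level of 269.6 at 0 h, 203, 47.0 and 23.2 in AZ-5576, 385, 361 and 429.5 in JQ1 and 372, 415 and 426 in DMSO. All 3 AZ-5576 values were under every value of the other arms, and at 8 h the level was 5.45% of that in DMSO (exact 95% interval 4.07% to 7.17%, counting error only). Its slope difference of -0.56 log2 per hour was the lowest of the members (SE 0.049, edgeR adjusted p = 9.69e-09).

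EIF5B had a level of 916 at 0 h, 932, 674 and 425 in AZ-5576, 1024, 1335 and 2256 in JQ1 and 1293, 1875 and 3004 in DMSO. It climbed in both other arms while it declined in AZ-5576, and at 8 h AZ-5576 held 14.2% of the DMSO level (13.2% to 15.1%). Its slope was 0.21 log2 per hour in DMSO, called higher than 0, and the AZ-5576 slope differed from it by -0.35 (SE 0.031, edgeR adjusted p = 1.03e-08). EIF1, the most abundant of these genes, had a level of 11115 at 0 h, 11832, 9287 and 6902 in AZ-5576, 10945, 12763 and 14854 in JQ1 and 13026, 12746 and 11952 in DMSO. EIF6 had 2429 at 0 h, 2559, 1523 and 1075 in AZ-5576, 2160.5, 1713 and 1661 in JQ1 and 2823, 1976 and 2689 in DMSO. AZ-5576 was lowest at 4 and 8 h for both genes, while at 2 h it lay between JQ1 and DMSO.

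For EIF5 the level was 2652 at 0 h, 2599, 1883 and 1314 in AZ-5576, 2658, 2215 and 2360.1 in JQ1 and 3006, 2537 and 2191 in DMSO. Reads of EIF5 are uncertain, because a processed pseudogene named for it held a mean of 4838.8 reads per library, 56.9% of the sum. With the pseudogene reads added the AZ-5576 difference of EIF5 was -0.057 log2 per hour and no longer called (edgeR adjusted p = 0.065). Without the AZ-5576 8 h library EIF1, EIF5 and EIF6 also lost their calls, at -0.077, -0.090 and -0.13 log2 per hour, and EIF5 and EIF6 did so without the DMSO 8 h library (-0.12 and -0.091).

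All 10 tested genes of the eIF2 and eIF2B group, which here includes EIF2A and EIF2D, were called lower in AZ-5576 than in DMSO per fly read. Of all genes 73.3% were. EIF2S1, EIF2S2 and EIF2S3 encode the alpha, beta and gamma subunits of eIF2, EIF2B1 to EIF2B5 encode eIF2B, which reloads eIF2 with GTP and is the target of the integrated stress response, and EIF2A and EIF2D deliver tRNA in non-canonical initiation. Their median slope difference was -0.19 log2 per hour (range -0.30 to -0.16), as over all genes. With TMM scaling it was -0.017, and EIF2B2 and EIF2S2 were called lower and no gene of the group higher, against 27.6% and 20.6% of all genes. In DMSO itself 7 of the 10 rose over the chase per fly read (24.5% of all genes did), and EIF2A and EIF2B2 did with TMM scaling (17.1% of all genes). EIF2S1 had a level of 926 at 0 h, 1092, 802 and 528 in AZ-5576, 954, 964 and 1046 in JQ1 and 1236, 1123 and 1485 in DMSO. EIF2S2 had 2499 at 0 h, 2817, 1892 and 1007 in AZ-5576, 2664, 2859 and 3768 in JQ1 and 3218, 3828 and 4312 in DMSO. Both genes were lowest in AZ-5576 at 4 and 8 h and highest in DMSO at each time.

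EIF2B2, the beta subunit of eIF2B, had a level of 130.4 at 0 h, 98.4, 73.6 and 47.8 in AZ-5576, 92.3, 122 and 227 in JQ1 and 146, 197 and 237 in DMSO. At 8 h the AZ-5576 level was 20.1% of that in DMSO (16.2% to 24.9%), and JQ1 had come back to near DMSO. The AZ-5576 slope differences of EIF2B2 (-0.30, SE 0.046, adjusted p = 6.01e-06), EIF2S2 (-0.25, SE 0.031, 3.83e-07) and EIF2S1 (-0.17, SE 0.031, 4.76e-05) were called by edgeR. EIF2S1 lost its call without the AZ-5576 8 h library (-0.12, adjusted p = 0.0843). Pseudogenes named for EIF2S2 held 26.6% of the reads of the gene and its copies.

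The eIF3 complex, the scaffold that holds the initiation factors on the small subunit, had about as many subunits past the test as not. Its genes EIF3A to EIF3M encode the subunits, and EIF3CL is a near-identical copy of EIF3C. Of 13 tested, EIF3A, EIF3B, EIF3D, EIF3E, EIF3F, EIF3J and EIF3M were called lower in AZ-5576 per fly read (7 of 13, median -0.095). Of all genes 73.3% were (median -0.19). With TMM scaling only EIF3A was lower and EIF3C, EIF3F, EIF3G, EIF3H, EIF3I and EIF3K were higher, against 27.6% and 20.6% of all genes. EIF3A, the largest subunit, had a level of 464 at 0 h, 426, 399 and 243 in AZ-5576, 482, 634 and 789.7 in JQ1 and 598, 829.5 and 1104 in DMSO. EIF3J, a loosely bound subunit, had 767 at 0 h, 849.9, 725 and 406 in AZ-5576, 874, 841 and 1010.2 in JQ1 and 982, 950.1 and 1158 in DMSO. For both genes every AZ-5576 value was under the JQ1 and DMSO values of its time.

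EIF3K, a peripheral subunit, had a level of 3906 at 0 h, 4716, 3541 and 3343 in AZ-5576, 3544, 3552 and 3321 in JQ1 and 4090.0, 4005 and 3696 in DMSO. The arms of EIF3K overlapped, and its AZ-5576 difference was -0.017 log2 per hour (edgeR adjusted p = 0.582). EIF3A differed by -0.27 (SE 0.032, adjusted p = 2.56e-07) and EIF3J by -0.17 (SE 0.031, 6.62e-05). EIF3J was no longer called without the AZ-5576 8 h library (-0.095, adjusted p = 0.142). EIF3L had a mean of 3.5 reads per library and was not tested, while 3 pseudogenes named for it held 106.4 reads, so its own level is uncertain.

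Cap binding and its control were covered by 13 tested genes. EIF4E binds the cap, EIF4G1 is the scaffold of eIF4F with EIF4G3 as its relative, EIF4A1 and EIF4A2 are its helicases, EIF4B and EIF4H aid the helicase, and EIF4EBP1 and EIF4EBP2 hold EIF4E back until mTOR phosphorylates them. EIF4E2 is a repressive cap binding protein, EIF4ENIF1 carries EIF4E into the nucleus and to repressed mRNAs, EIF4G2 serves cap-independent initiation and EIF4A3 belongs to the exon junction complex. The AZ-5576 slope was called lower per fly read for 12 of 13, all but EIF4EBP1 (median -0.18), against 73.3% of all genes (median -0.19). With TMM scaling EIF4A3, EIF4ENIF1, EIF4G2 and EIF4G3 were lower and EIF4E2, EIF4EBP1 and EIF4H higher, against 27.6% and 20.6% of all genes. The germ cell form EIF4E1B and the cap binding EIF4E3 had means of 0.3 and 3.7 reads and were not tested.

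EIF4A1 had a level of 3361 at 0 h, 3305, 2064 and 1341 in AZ-5576, 3549, 4413 and 3836 in JQ1 and 4271, 3738 and 3644 in DMSO. EIF4A2 had 1491 at 0 h, 1163, 974 and 557 in AZ-5576, 1821, 1823 and 2299 in JQ1 and 1855, 1725 and 1785 in DMSO. EIF4A3 had 455 at 0 h, 403, 366 and 214 in AZ-5576, 665, 1093 and 1948 in JQ1 and 694, 705 and 1099 in DMSO. AZ-5576 was lowest at every time for all 3 helicase relatives, and JQ1 stood highest at 4 and 8 h. The AZ-5576 slope differences were -0.29 for EIF4A3 (SE 0.031, edgeR adjusted p = 9.00e-08), -0.21 for EIF4A2 (SE 0.028, 6.74e-07) and -0.19 for EIF4A1 (SE 0.028, 4.61e-06).

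EIF4E had a level of 1312 at 0 h, 1474, 1171 and 706 in AZ-5576, 1206, 1148 and 1174 in JQ1 and 1754, 1805 and 2059.7 in DMSO. EIF4G1 had 996 at 0 h, 919.7, 695 and 415 in AZ-5576, 745, 747 and 586 in JQ1 and 1173, 851 and 1290.2 in DMSO. EIF4G2 had 4382 at 0 h, 4495, 3404 and 2201 in AZ-5576, 5459, 6199 and 8368 in JQ1 and 5678, 6163 and 7983 in DMSO. EIF4E and EIF4G1 were below DMSO in both inhibitors at each time, whereas EIF4G2 was below it at each time in AZ-5576 and close to it in JQ1. Under AZ-5576 the slope differed from DMSO by -0.18 for EIF4E (SE 0.031, edgeR adjusted p = 1.87e-05) and for EIF4G1 (SE 0.033, 4.04e-05), and by -0.23 for EIF4G2 (SE 0.025, 1.39e-07).

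EIF4EBP1 had a level of 247 at 0 h, 287, 231 and 153 in AZ-5576, 201, 219 and 182 in JQ1 and 283, 216 and 249 in DMSO. EIF4EBP2 had 608 at 0 h, 716, 492 and 328 in AZ-5576, 747, 957 and 1345 in JQ1 and 712, 764 and 901 in DMSO. EIF4EBP1 in AZ-5576 was above DMSO at 2 and 4 h and below it at 8 h, and the arms of EIF4EBP2 parted from 4 h on, with AZ-5576 lowest and JQ1 highest. The AZ-5576 difference was -0.062 for EIF4EBP1 (edgeR adjusted p = 0.154) and -0.17 for EIF4EBP2 (SE 0.031, 5.89e-05). Without the AZ-5576 8 h library EIF4E (-0.12, adjusted p = 0.0676), EIF4EBP2 (-0.12, 0.0800) and EIF4G1 (-0.14, 0.0572) lost their calls, and EIF4G1 did so without the DMSO 8 h library (-0.12, 0.0741).

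**Figure D2:**
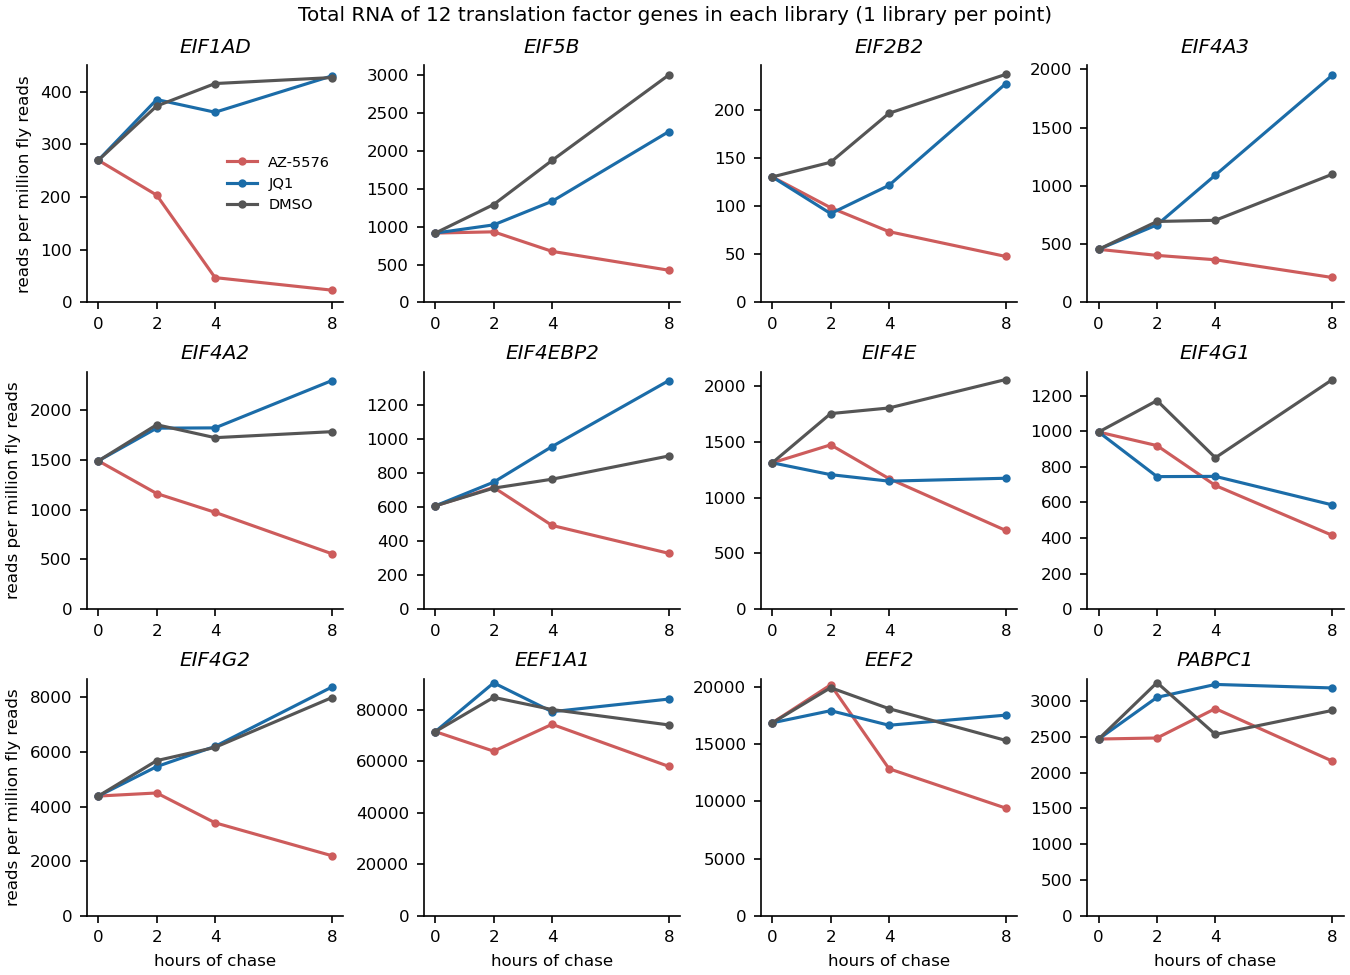
Level in reads per 1000000 fly reads (linear axis from 0) against hours of chase for 12 members, with lines for AZ-5576, JQ1 and DMSO from the common 0 h library and 1 library per point. AZ-5576 ends lowest at 8 h for all 12, at 5.45% of DMSO for EIF1AD and 78.3% for EEF1A1, while JQ1 ends above DMSO for EIF4A3 and below it for EIF4G1. With TMM scaling the AZ-5576 slope differences of EEF1A1, EEF2, EIF4EBP2 and PABPC1 are above 0.

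The elongation factors kept closest to DMSO under AZ-5576. EEF1A1 carries aminoacyl tRNA to the ribosome, and EEF1A2 is its tissue-restricted form. EEF1B2, EEF1D and EEF1G recharge eEF1A with GTP, EEF1E1 is a part of the multi-tRNA synthetase complex, EEF2 moves the ribosome by a codon, and EIF5A with its relatives EIF5A2 and EIF5AL1 helps at difficult peptide bonds. The AZ-5576 slope was called lower per fly read for EEF1E1, EEF2 and EIF5A2 only, 3 of 10 (median -0.021 log2 per hour). Of all genes 73.3% were called lower (median -0.19). With TMM scaling the other 7 and EEF2 were called higher and none lower, against 20.6% and 27.6% of all genes. EEF1A1, with the highest mean count of the members (121946 reads per library), had a level of 71570.3 at 0 h, 63967, 74411 and 58062 in AZ-5576, 90511, 79309.5 and 84221 in JQ1 and 84884, 80145 and 74169 in DMSO. EEF2 had 16881 at 0 h, 20202, 12864 and 9422 in AZ-5576, 17944, 16668 and 17553 in JQ1 and 19953, 18118 and 15344 in DMSO. EEF1A1 in AZ-5576 at 8 h was at 78.3% of DMSO, and EEF2 was level with DMSO at 2 h and lowest in AZ-5576 after that.

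EEF1G had a level of 15934 at 0 h, 18148, 13486 and 11191 in AZ-5576, 12678, 12889 and 10981 in JQ1 and 17857, 14020.2 and 12238 in DMSO. EEF1B2 had 3585 at 0 h, 4153, 3444 and 2805 in AZ-5576, 3014, 3284 and 2853 in JQ1 and 4422, 3377 and 3036 in DMSO. EEF1D had 3477 at 0 h, 3936, 2641 and 2238 in AZ-5576, 2989, 2571 and 2189 in JQ1 and 3808, 2682 and 2485 in DMSO. These 3 subunits were lower at 8 h than at 0 h in every arm, DMSO included, and the arms overlapped. Their AZ-5576 differences were -0.014 for EEF1G, -0.012 for EEF1B2 and -0.014 for EEF1D (edgeR adjusted p = 0.633, 0.716 and 0.665).

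EIF5A had a level of 2112 at 0 h, 2108, 1962 and 1550.2 in AZ-5576, 2071, 1861 and 1320.1 in JQ1 and 2492, 1906 and 1837 in DMSO. EIF5AL1, a near-identical copy whose reads cannot be cleanly separated from those of EIF5A, had 2534 at 0 h, 2695, 2883 and 2146 in AZ-5576, 1690.2, 2682 and 1898 in JQ1 and 2755, 2592 and 2479 in DMSO. Neither gene separated the arms, and their AZ-5576 differences were -0.028 and -0.012 log2 per hour (edgeR adjusted p = 0.363 and 0.751). The EEF2 difference was -0.089 (SE 0.026, adjusted p = 0.00385) and that of EEF1A1 was -0.048 (SE 0.022, 0.0580). EEF2 was not called without the AZ-5576 8 h library (-0.071, adjusted p = 0.254), and EEF1A1 was called without the 0 h (0.0492), AZ-5576 2 h (0.0492), AZ-5576 4 h (0.0496) or JQ1 2 h library (0.0396). Pseudogenes named for EEF1D held 31.8% and those for EEF1B2 held 12.4% of the reads of gene and copies. The read-through transcript EEF1E1-BLOC1S5 had a mean of 1.8 reads and was not tested.

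Release and poly(A) binding were covered by 4 genes. ETF1 is eRF1, which reads the stop codon, GSPT1 is its GTPase partner eRF3a, and PABPC1 and PABPC4 bind the poly(A) tail. ETF1, GSPT1 and PABPC4 were called lower in AZ-5576 per fly read (3 of 4, median -0.14), against 73.3% of all genes (median -0.19). With TMM scaling PABPC1 was called higher, as were 20.6% of all genes, and the other 3 were not called. ETF1 had a level of 1892 at 0 h, 2208, 1636 and 1117 in AZ-5576, 1723, 2051 and 1793 in JQ1 and 2455, 2263 and 2673 in DMSO. GSPT1 had 1814 at 0 h, 2339.7, 1619.7 and 1016 in AZ-5576, 1902, 1971 and 2119.6 in JQ1 and 2417, 2699.8 and 2979.6 in DMSO. Both release factors were highest in DMSO at each time and lowest in AZ-5576 at 4 and 8 h.

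PABPC1 had a level of 2470.0 at 0 h, 2484, 2895 and 2163 in AZ-5576, 3052, 3233 and 3184 in JQ1 and 3258, 2534 and 2869 in DMSO. PABPC4 had 1531 at 0 h, 1116, 1624 and 1114 in AZ-5576, 1984, 2505 and 2616 in JQ1 and 1876, 1739 and 2700.0 in DMSO. PABPC1 in AZ-5576 lay above DMSO at 4 h and below it at 2 and 8 h, whereas PABPC4 in AZ-5576 was the lowest arm at each time. The slope differences were -0.15 for ETF1 (SE 0.029, edgeR adjusted p = 0.000144), -0.18 for GSPT1 (SE 0.031, 2.03e-05), -0.14 for PABPC4 (SE 0.032, 0.000395) and -0.039 for PABPC1 (SE 0.028, 0.217). Without the AZ-5576 8 h library ETF1 (-0.10, adjusted p = 0.122), GSPT1 (-0.12, 0.0787) and PABPC4 (-0.12, 0.100) lost their calls, as PABPC4 did without the DMSO 8 h library (-0.10, 0.128).

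The members known from the literature as TOP mRNAs are EEF1A1, EEF1B2, EEF1D, EEF1G, EEF2, EIF3E, EIF3F, EIF3H, EIF4B and PABPC1. This list was fixed with earlier results of these data known. The AZ-5576 slope was called lower per fly read for 4 of these 10 (median -0.053 log2 per hour) and for 38 of the other 47 (median -0.17), against 73.3% of all genes. With TMM scaling 0 of the 10 were lower and 8 higher. Of the other 47, 9 were lower and 13 higher, against 27.6% and 20.6% of all genes. Among members with a window, the tract at the annotated start did not separate them in this way. EEF1D, EIF3E, EIF3H and PABPC1 have no window and are in neither set below, and EEF1G is in the set without a tract. The sets therefore cover other genes than the TOP list. Of 12 tested members with the tract 9 were lower per fly read (median -0.16), and of 34 tested members with a window and no tract 29 were (median -0.17).

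**Figure D3:**
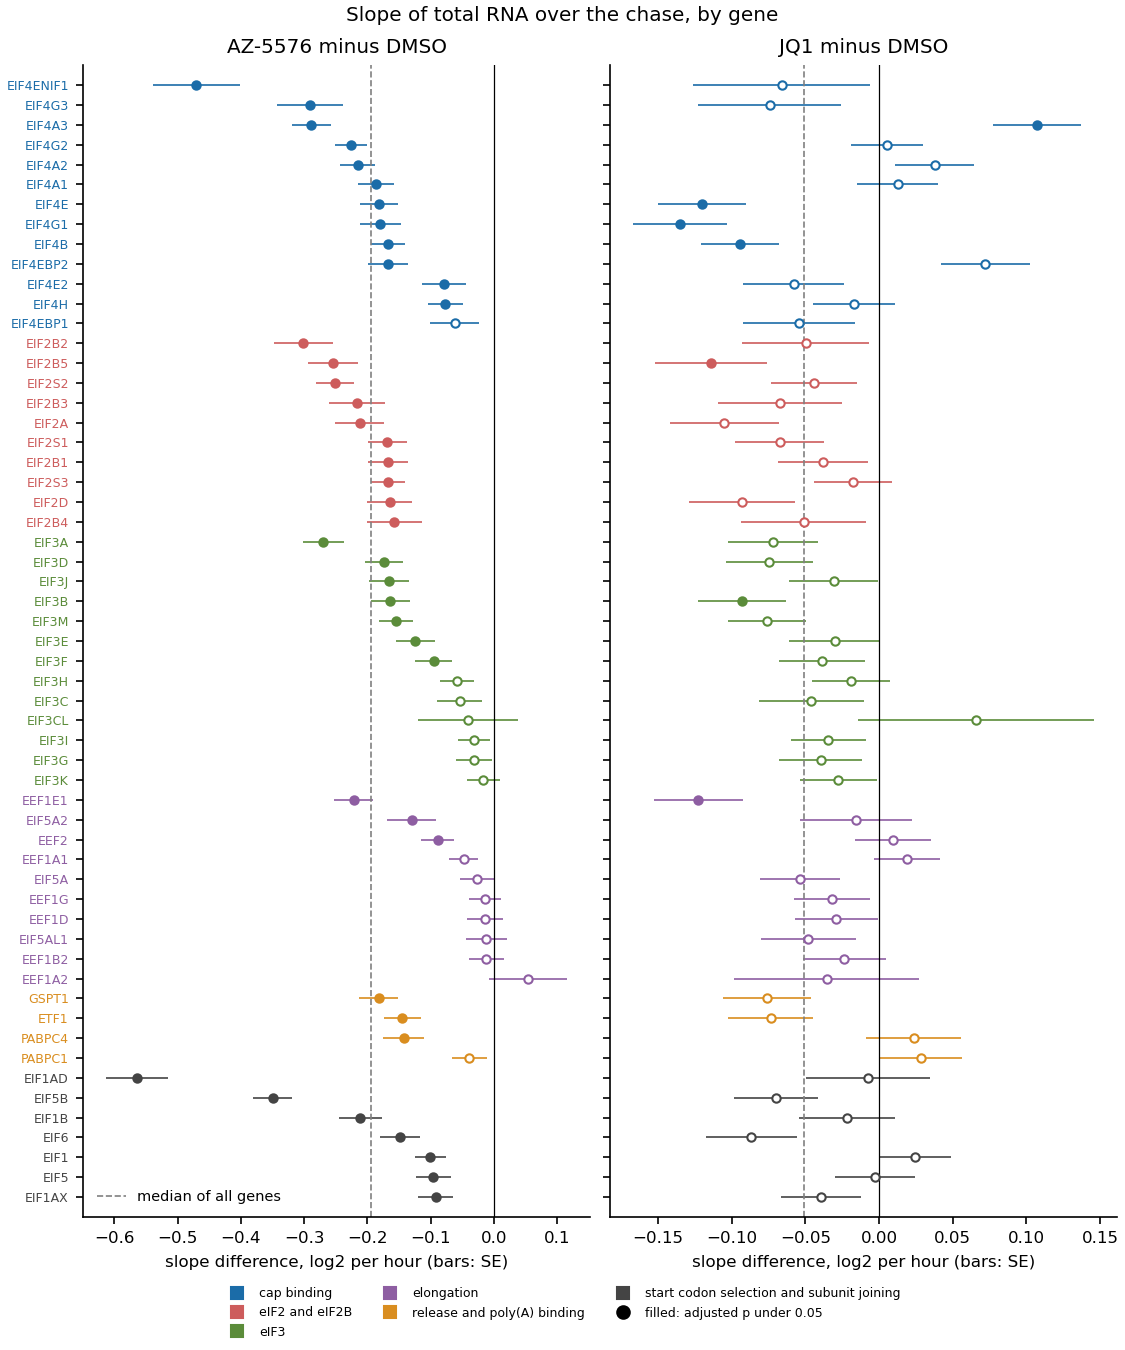
Slope of AZ-5576 minus DMSO and of JQ1 minus DMSO in log2 per hour (total RNA per fly read), with bars for 1 SE, for the 57 tested members grouped by role. Filled points have an edgeR adjusted p under 0.05 (42 lower in AZ-5576, 6 lower and 1 higher in JQ1), and the dashed lines are the medians of all genes (-0.19 and -0.051), which TMM scaling moves to near 0.

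Few translation factor mRNAs passed the slope test under JQ1, though most stood below DMSO per fly read. In single libraries 50, 41 and 45 of the 57 members did so at the 3 times (median log2 ratios -0.29, -0.14 and -0.27). Of all genes 82.4%, 75.7% and 72.3% did (medians -0.33, -0.29 and -0.31). The JQ1 slope minus that of DMSO was called lower for 6 of the 57 members (10.5%) and higher for 1 (1.75%). Of all genes 16.2% were lower and 1.79% higher, so the members' shares were at or under those of all genes. EIF4B, EIF4E, EIF4G1, EIF2B5, EIF3B and EEF1E1 were the 6, and EIF4A3 was the 1. Of the cap binding group 3 of 13 were thus lower and 1 was higher. With TMM scaling EIF4E, EIF4G1 and EEF1E1 were lower (3 members, 7.72% of all genes) and EIF4A2, EIF4A3, EIF4EBP2, EIF4G2, EIF1, EEF2 and PABPC1 higher (7 members, 5.49% of all genes). The median over the members was -0.039 log2 per hour and over all genes -0.051. This comparison uses the same DMSO libraries as that of AZ-5576, so the lists are not independent.

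The scaffold EIF4G1, at 586 in JQ1 and 1290.2 in DMSO at 8 h, stood at 45.5% of its DMSO level (exact 95% interval 42.2% to 49.0%), and the cap binding protein EIF4E at 57.0% (54.0% to 60.2%). Their slope differences were -0.14 (SE 0.032, edgeR adjusted p = 0.00534) and -0.12 (SE 0.030, 0.00721). The helper of the helicase EIF4B had a level of 1896 at 0 h, 2009.9, 1631 and 1267 in AZ-5576, 1794, 1891 and 2071 in JQ1 and 2350.0, 2517 and 3343 in DMSO. EIF4B climbed in DMSO and stayed near its start in JQ1, a difference of -0.094 (SE 0.026, adjusted p = 0.0157).

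The exchange factor subunit EIF2B5 had a level of 322 at 0 h, 339, 163 and 145 in AZ-5576, 326, 256 and 328 in JQ1 and 412, 382 and 586 in DMSO. The eIF3 subunit EIF3B had 2894 at 0 h, 3242, 2193 and 1369 in AZ-5576, 2237, 2442 and 2389 in JQ1 and 3320.2, 3366 and 3669 in DMSO. The synthetase complex member EEF1E1 had 696 at 0 h, 738, 554 and 334 in AZ-5576, 812, 679.8 and 606 in JQ1 and 1002, 986 and 1166 in DMSO. All 3 were below DMSO in JQ1 at each time, by -0.11 (SE 0.038, edgeR adjusted p = 0.0387), -0.093 (SE 0.030, 0.0317) and -0.12 (SE 0.030, 0.00705) log2 per hour.

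In the other direction EIF4A3 at 8 h stood at 177% of its DMSO level in JQ1 (168% to 188%) and EIF4EBP2 at 149% (140% to 159%). The slope of EIF4A3 was higher by 0.11 (SE 0.030, edgeR adjusted p = 0.0150), while that of EIF4EBP2 differed by 0.072 (SE 0.030, 0.101), that of EIF4A2 by 0.038 (0.344) and that of PABPC1 by 0.028 (0.516). These JQ1 calls rest on single libraries. The number of called members was 0 without the DMSO 8 h library, 1 without the JQ1 8 h library, 3 without the JQ1 4 h library and 16 without the AZ-5576 2 h library, where EIF4EBP2 was among those called (adjusted p = 0.0392). All 7 JQ1 calls of the members were lost without the DMSO 8 h library (adjusted p from 0.183 for EIF4E to 0.563 for EIF2B5).

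The inhibitors were also set against each other, with EIF1AD and the helicase relatives at the lower end. The AZ-5576 slope minus the JQ1 slope was called lower for 36 of 57 members (63.2%) and higher for 0, against 55.0% and 0.822% of all genes. With TMM scaling 12 were lower and 22 higher, against 26.5% and 21.8% of all genes. No member was higher at an unadjusted p under 0.05 or by DESeq2. The lowest values among members with a mean count of at least 100 were -0.56 for EIF1AD, -0.40 for EIF4A3 (SE 0.032, edgeR adjusted p = 3.57e-09), -0.28 for EIF5B and -0.25 for EIF4A2 (SE 0.028, 1.65e-07). At the upper end EIF5AL1 (0.036), EIF5A (0.026), EEF1G (0.018) and EEF1D (0.015) were not called. Under that count EIF4ENIF1 had -0.40 (edgeR adjusted p = 2.89e-05) and EEF1A2 had 0.089 (0.229). EIF4E differed by -0.061 (adjusted p = 0.0872) and EIF4G1 by -0.045 (0.250), and both were positive with TMM scaling (0.061 and 0.077). The count was 10 without the AZ-5576 8 h library and 13 without the JQ1 8 h library.

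A model of the mean difference over 2, 4 and 8 h, which leaves 4 residual degrees of freedom, called fewer genes. For AZ-5576 minus DMSO 0 of 57 members were called (2.47% of all genes were), with 33 at an unadjusted p under 0.05 and 14 lower by DESeq2 (35.3% of all genes). Among members with a mean count of at least 100 the mean differences were -2.53 log2 for EIF1AD (SE 0.63, edgeR adjusted p = 0.0536), -1.49 for EIF5B, -1.34 for EIF2B2 and -1.26 for EIF4A3, and at the other end -0.032 for EIF5AL1, -0.035 for EIF3K, -0.040 for EEF1D and -0.052 for EEF1G. Under that count EIF4ENIF1 had -2.14, EIF3CL 0.023 and EEF1A2 0.20. The median was -0.66 over the members and -0.82 over all genes, and with TMM scaling 0.082 and -0.082, where EIF1AD alone was called lower (2.32% of all genes). EIF1AD was called without the AZ-5576 2 h, AZ-5576 8 h, JQ1 8 h or DMSO 2 h library (-3.60, -1.83, -2.64 and -3.11). The count of called members was 36 with the AZ-5576 2 h library left out. It was 12 with JQ1 8 h left out, 8 with AZ-5576 8 h left out and 5 with DMSO 2 h left out. The shares of all genes in these refits are not given here.

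For JQ1 the mean difference was called for 0 of 57 members and 0% of all genes by edgeR, with 2 members at an unadjusted p under 0.05 and 0 by DESeq2. Among members with a mean count of at least 100 its lowest values were -0.69 for EIF4G1, -0.68 for EIF4E, -0.62 for EEF1E1 and -0.61 for EIF2B5, and its highest 0.52 for EIF4A3, 0.36 for EIF4EBP2, 0.17 for PABPC4 and 0.16 for EIF4A2, while EIF3CL, with fewer reads, had 0.83. The genes with at least that count head the slope comparison as well, apart from PABPC4.

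Labelled RNA, made before the chase, was below its 0 h level at 8 h in every arm, with slow loss for most elongation factors and the fastest for EIF1AD. At 2 h the members' median log2 ratio to 0 h was 0.15 in DMSO (40 of 53 above) and 0.088 in AZ-5576 (38 of 53 above). It was -0.13 in JQ1 (37 of 53 below), and over all genes the 3 medians were 0.091, 0.021 and -0.21. The slopes and half-lives are those of straight lines, which do not follow this early rise. In DMSO the labelled slope was called lower than 0 per fly read for 46 of 53 members (86.8%, against 88.3% of all genes), with a median of -0.16 log2 per hour over the members and -0.22 over all genes. With TMM scaling, which makes these slopes relative to the median gene (-0.011), 3 members were lower (EIF1AD, EIF4A2 and EIF1B; 26.3% of all genes) and 30 higher (22.9% of all genes). Growth of the culture dilutes labelled RNA, so the slopes hold dilution and decay together. EIF1AD had a labelled level of 210.2 at 0 h, 162, 21.1 and 7.18 in AZ-5576, 193, 82.8 and 17.2 in JQ1 and 189, 84.8 and 20.4 in DMSO. EEF1A1 had 19194 at 0 h, 20608, 20632 and 15199 in AZ-5576, 20859, 18857 and 16285 in JQ1 and 23684, 18438 and 15663 in DMSO. EIF1AD lost most of its labelled reads within 8 h in all arms, while EEF1A1 kept most of them.

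Among members with a mean labelled count of at least 100 the steepest labelled slopes in DMSO were -0.49 for EIF1AD, -0.34 for EIF4A2, -0.29 for EIF1B and -0.25 for ETF1. The shallowest were -0.038 for EIF5AL1, -0.049 for EIF3E, -0.057 for EIF3H and -0.059 for EIF3K, none of them called lower. With fewer labelled reads EIF2B4 had -0.30 and EIF3C -0.038. EEF1A1 was called at -0.061 (edgeR adjusted p = 0.0277), and with TMM scaling it was 0.15. That call was lost without the AZ-5576 4 h (edgeR adjusted p = 0.0633), AZ-5576 8 h (0.0783), JQ1 8 h (0.0515), DMSO 4 h (0.0552) or DMSO 8 h library (0.556). By role the called loss covered 7 of 7 start codon and joining genes (median -0.20), 10 of 10 of eIF2 and eIF2B (-0.20), 8 of 12 of eIF3 (-0.13), 10 of 11 of cap binding (-0.15), 7 of 9 of elongation (-0.11) and 4 of 4 of release and poly(A) binding (-0.14). Of all genes 88.3% had a called loss, with a median of -0.22. These medians are per fly read, and with TMM scaling no role had more genes called lower than higher. The count of 46 was 16 without the DMSO 8 h library and 3 without the 8 h libraries of all arms.

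The labelled level of EIF1B was 355 at 0 h, 305, 223 and 120.0 in AZ-5576, 248, 169 and 84.8 in JQ1 and 336, 167 and 74.3 in DMSO. For ETF1 it was 1035 at 0 h, 1099.7, 762 and 480.1 in AZ-5576, 828, 628 and 301 in JQ1 and 1056, 681 and 292 in DMSO. Both genes kept more labelled reads in AZ-5576 than in the other arms at 4 and 8 h. The eIF3 subunit EIF3E had a labelled level of 375 at 0 h, 443, 485 and 343 in AZ-5576, 465, 419 and 348 in JQ1 and 526, 376 and 362 in DMSO. EIF3H had 684 at 0 h, 886, 770.3 and 596 in AZ-5576, 729, 667 and 557 in JQ1 and 881, 740.4 and 587 in DMSO. At 8 h EIF3E and EIF3H were below their 0 h level in every arm and still close to it.

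For EIF3K the labelled level was 558 at 0 h, 699, 497 and 469 in AZ-5576, 504, 488 and 392 in JQ1 and 639.9, 515 and 443 in DMSO. For EIF5AL1 it was 768 at 0 h, 851, 843 and 726 in AZ-5576, 552, 816 and 579 in JQ1 and 925, 721 and 649 in DMSO. Both genes ended below their 0 h level in every arm, with JQ1 lowest.

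As half-lives, the inverse of a called slope and again per fly read, the members had a median of 6.58 h in AZ-5576 (44 genes), 5.74 h in JQ1 (49 genes) and 5.86 h in DMSO (46 genes), against 4.86, 3.97 and 4.10 h over all genes. EIF1AD had 1.37 h in AZ-5576, 1.98 h in JQ1 and 2.06 h in DMSO, and EEF1A1 had 16.2, 17.1 and 16.5 h. EIF4A2 had 4.20 h in AZ-5576, 3.58 h in JQ1 and 2.97 h in DMSO, and EIF4G1 had 5.55, 3.02 and 4.55 h. The helicase EIF4A2 and its paralogue EIF4A3 (5.00 h in AZ-5576, 12.4 h in JQ1 and 6.73 h in DMSO) thus stood on opposite sides of DMSO under AZ-5576 and on the same side under JQ1, with no difference from DMSO called by edgeR per fly read for either gene. Under AZ-5576 DESeq2 called the labelled slope of EIF4A2 higher than in DMSO, and TMM scaling called EIF4A2 higher and EIF4A3 lower.

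**Figure D4:**
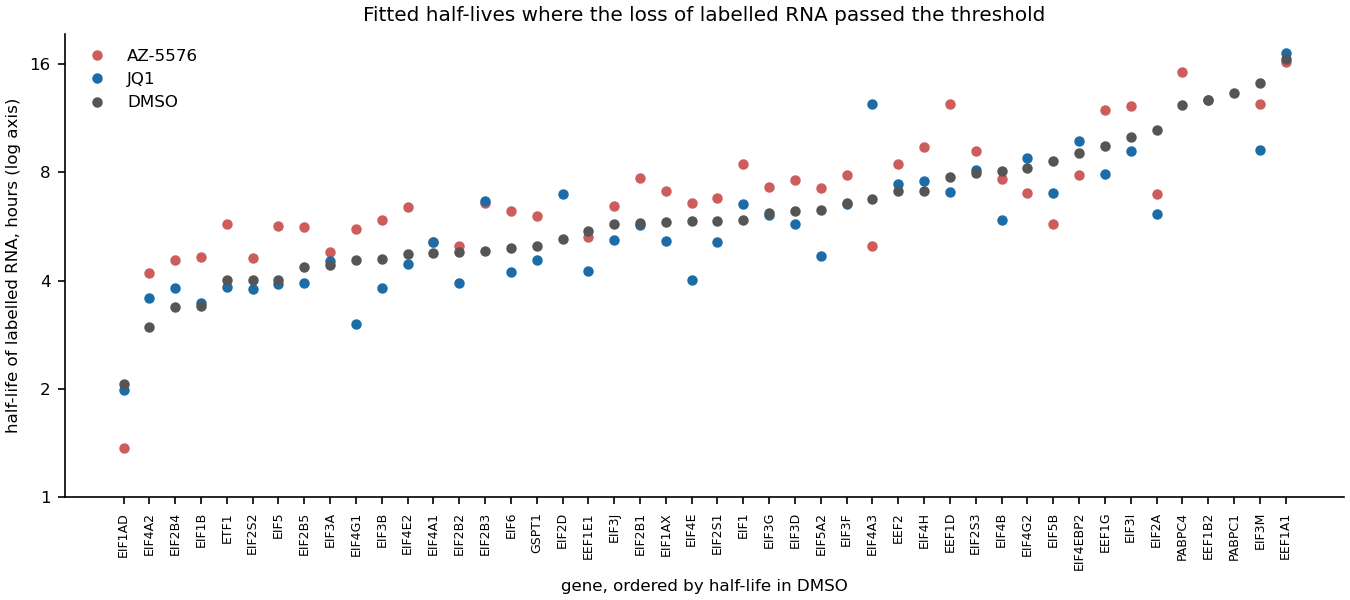
Half-life of labelled RNA in hours (log axis, dilution by growth included, per fly read) for the 46 members with a called loss in DMSO, with a point per arm. The genes run from EIF1AD at 2.06 h to EEF1A1 at 16.5 h in DMSO, and the points of the 3 arms lie close together for most genes. TMM scaling makes slopes relative to the median gene, and with it 30 of all 53 tested members were called above 0 in DMSO.

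Labelled slopes differed little between arms. AZ-5576 minus DMSO was called lower for EIF1AD (1 of 53 members, 1.22% of all genes) and higher for 0 members (3.53% of all genes), with 5 members higher at an unadjusted p under 0.05 and 1, EIF4A2, by DESeq2 (2.39% of all genes). EIF1AD was the fastest decaying member and was lost faster still, by -0.25 log2 per hour (SE 0.057, edgeR adjusted p = 0.00185). That call was lost without the AZ-5576 4 h (-0.17, adjusted p = 0.108), AZ-5576 8 h (-0.35, 0.0502) or DMSO 8 h library (-0.27, 0.0902). With TMM scaling EIF1AD, EIF5B, EIF4A3 and EIF4G2 were lower (3.75% of all genes) and EIF4A2 higher (2.68%). The other values at the ends, among members with a mean labelled count of at least 100, were -0.058 for EIF5B, -0.051 for EIF4A3, -0.048 for EIF2A, 0.10 for EIF2D, 0.098 for EIF4A2, 0.080 for EIF1B and 0.076 for ETF1. With fewer labelled reads EIF4G3 had -0.15, EIF3C -0.053 and EIF2B4 0.077.

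EIF4A2 had a labelled level of 1090.0 at 0 h, 831, 648 and 349 in AZ-5576, 855, 610.1 and 265 in JQ1 and 1008, 506 and 181 in DMSO. Its AZ-5576 value was below DMSO at 2 h and above it at 4 and 8 h, and the slope difference was not called by edgeR (adjusted p = 0.0563). EIF4A3 had 324 at 0 h, 287, 266 and 128 in AZ-5576, 337, 369 and 249 in JQ1 and 426, 263 and 169 in DMSO. EIF4G1 had 261 at 0 h, 271, 210.5 and 115 in AZ-5576, 180.2, 174 and 44.1 in JQ1 and 296, 146 and 100.4 in DMSO. At 8 h the labelled reads of EIF4G1 were lowest in JQ1 and those of EIF4A3 highest there.

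EIF5B had a labelled level of 602 at 0 h, 638, 441 and 281 in AZ-5576, 601, 513 and 334 in JQ1 and 723, 572 and 363 in DMSO. EIF2A had 101 at 0 h, 109, 98.8 and 58.3 in AZ-5576, 104, 88.3 and 54.4 in JQ1 and 159, 102 and 73.2 in DMSO. EIF2D had 76.4 at 0 h, 73.5, 89.2 and 51.6 in AZ-5576, 81.7, 66.3 and 39.5 in JQ1 and 72.0, 59.9 and 30.1 in DMSO. AZ-5576 stood below DMSO at each time for EIF5B and EIF2A and above it at each time for EIF2D, and edgeR called none of these slope differences.

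In labelled RNA EIF4E had 828 at 0 h, 895, 731 and 423 in AZ-5576, 670.5, 536 and 262 in JQ1 and 989, 667 and 375 in DMSO. EIF5A2 had 96.0 at 0 h, 101, 64.7 and 55.8 in AZ-5576, 78.0, 53.2 and 38.4 in JQ1 and 118, 86.2 and 38.6 in DMSO. PABPC4 had 860.3 at 0 h, 673, 964 and 659.7 in AZ-5576, 937, 980.2 and 647 in JQ1 and 1068, 685 and 628 in DMSO. EIF4E was lowest in JQ1 at each time, EIF5A2 was too but met DMSO at 8 h, and PABPC4 showed no order of arms held at all times.

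JQ1 minus DMSO was called for 0 of 53 members (0.352% of all genes lower and 0.318% higher), with 3 at an unadjusted p under 0.05 and 0 by DESeq2. The values at the ends, among members with a mean labelled count of at least 100, were -0.11 for EIF4G1 (edgeR adjusted p = 0.291), -0.079 for EIF4E, -0.068 for EIF2A, -0.055 for EIF5A2, 0.068 for EIF4A3, 0.057 for EIF4A2, 0.049 for EIF2D and 0.025 for PABPC4. With fewer labelled reads EIF4G3 had -0.20 (adjusted p = 0.502 by edgeR), EIF2B3 0.056 and EIF2B4 0.035. AZ-5576 minus JQ1 was called lower for EIF1AD (-0.22, adjusted p = 0.00550) and EIF4A3 (-0.12, 0.0266), 1.03% of all genes being lower. It was called higher for EIF4E (0.097, adjusted p = 0.0497) and EIF4G1 (0.15, 0.0107), 4.53% of all genes being higher. With TMM scaling EIF1AD, EIF4A3, EIF5B, EIF4G2 and EEF1A1 were lower (3.6% of all genes) and no member was higher (1.78%).

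The unlabelled reads, which are the total minus the labelled reads, carried most of the AZ-5576 gap. At 8 h the median log2 ratio of AZ-5576 to DMSO was -1.86 for unlabelled reads of 57 members (-2.33 over all genes) and 0.16 for labelled reads of 53 members (0.27 over all genes). EIF5B had -4.19 for unlabelled and -0.37 for labelled reads, EIF4A3 -3.44 and -0.40, EIF2B2 -3.37 and 0.36, and EIF4A2 -2.94 and 0.95. EIF1AD was low in both, at -4.64 for unlabelled and -1.48 for labelled reads. For EEF1A1 both ratios were small (-0.45 and -0.037). Unlabelled reads hold RNA made after the label was withdrawn, RNA older than the label and reads of RNA made during labelling that were not called labelled.

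JQ1 left both kinds of read closer to DMSO, with member medians at 8 h of -0.32 for unlabelled and -0.034 for labelled reads. EIF4G1 was low in both (-1.13 and -1.18) and EIF4A3 high in both (0.87 and 0.56), while EIF4EBP2 was high in unlabelled reads only (0.72 and -0.030). These are ratios of single libraries with no test, and they share the DMSO libraries.

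**Figure D5:**
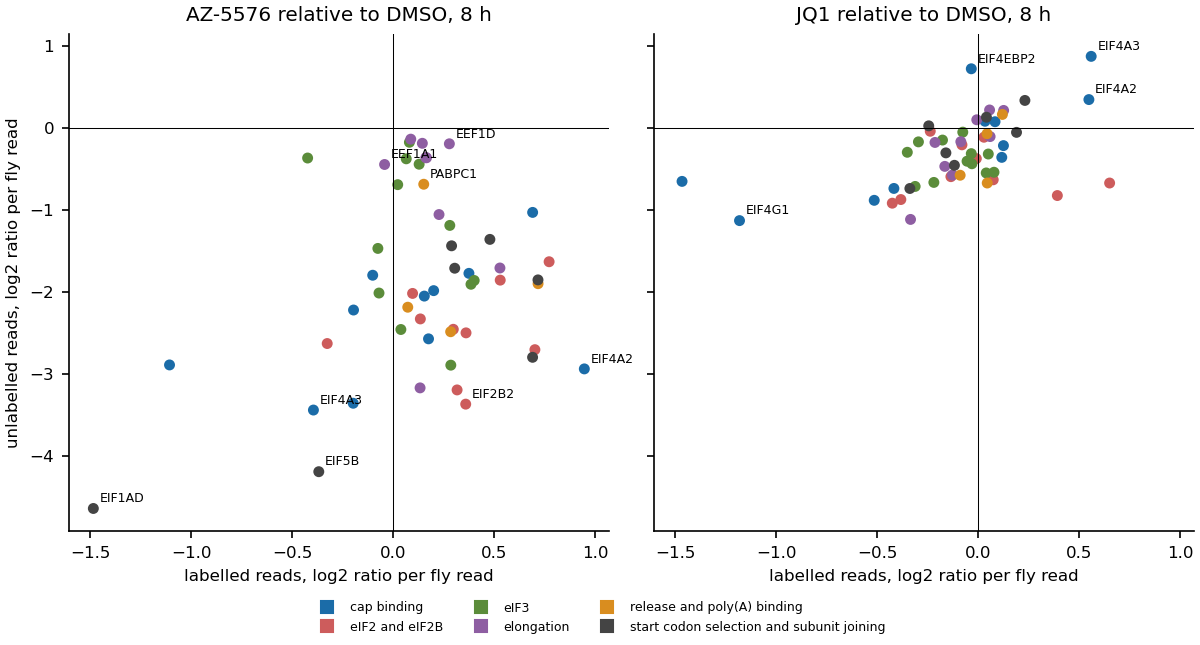
Log2 ratio to DMSO at 8 h of labelled reads (x axis) and of unlabelled reads (y axis), each per fly read, for the 53 members tested in labelled RNA, with a panel for AZ-5576 and one for JQ1 and 1 library per ratio. Under AZ-5576 all points lie below 0 on the y axis, from -4.64 for EIF1AD to -0.14 for EEF1B2, and on the x axis they run from -1.48 for EIF1AD and -1.11 for EIF4G3 to 0.95 for EIF4A2. A change of 1 factor per library would move all points of a panel along both axes by 1 constant. The TMM scaling used elsewhere was computed for total and labelled reads separately and was not applied to unlabelled reads.

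The labelled share of a gene's reads at 0 h ran from 10.6% for EEF1D to 77.9% for EIF1AD over the 53 members, with a median of 45.3%, against 53.8% over all genes. At 8 h the member medians were 43.0% in AZ-5576, 17.6% in JQ1 and 15.4% in DMSO, and those of all genes were 43.3%, 12.7% and 10.3%. The 0 h share went with the T content of the last 200 bases of the gene (r = 0.519, Spearman 0.504 over 53 members, and r = 0.509, Spearman 0.498 over 7812 genes). This is a correlation across genes, which are not replicates and share the 0 h library. The part of base composition in the differences between genes was not tested.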

How the data were processed

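The authors deposited raw counts of reads per gene, with no normalization, in 3 tables (total and nascent human reads, and fly reads). The human build was hg38 and the fly build dm6, and the tools named are Trim Galore 0.6.5, bcl2fastq 2.17.1.14 and bedtools, per the submitters' processing notes. The aligner, the counter, the annotation and the rule for labelled reads are not given in the sources used here, so genes with near-identical copies are uncertain. Members and lists were chosen with earlier results of these data known.

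Counts were fitted with edgeR 4.0.16 (R 4.3.3, quasi-likelihood test) over all genes averaging at least 20 counts per library, with fly totals as library sizes and a Benjamini-Hochberg threshold of 0.05. The slope model has a common 0 h level and a slope per arm (6 residual degrees of freedom), and the mean-difference model has a level per time and a term per inhibitor (4 residual degrees of freedom). Standard errors were derived from the quasi-likelihood F. The common biological coefficient of variation was 0.205 for slopes of total RNA, 0.188 for labelled RNA and 0.362 for mean differences. Library ratios used a pseudocount of 0.5 reads, and their intervals are exact (95%) and cover counting error only, since reads without molecular identifiers are not independent molecules. The scripts were tested on simulated counts.

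All members are named with their role. Values in every library are given for 21 core factors fixed by name and for the 4 lowest and 4 highest members of each comparison among those with a mean count of at least 100 (labelled levels for labelled comparisons), and members that were called or need a caveat were added after their values were seen. Alternatives were TMM scaling, median-of-ratios scaling on fly genes, DESeq2 1.42.0, no count filter, fits of 2 arms, leaving out each library or time point and, chosen after seeing the data, adding pseudogene reads to the member they are named for. Gene classes are from GENCODE v29 and gene starts from RefSeq (GRCh38.p14).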

Additional observations from a re-analysis of the deposited data

How the results depend on the processing

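The number of called members moved with the libraries used and with the method. For the mean difference of AZ-5576 from DMSO edgeR called 2.47% of all genes per fly read. TMM scaling called 2.32% of all genes lower and DESeq2 35.3%, against 1.75% and 24.6% of the members. Apart from TMM scaling and DESeq2, shares of all genes under the alternatives are not given here or above. The counts therefore do not set the members apart from other genes. The mean difference of AZ-5576 from DMSO called 0 members, 1 with TMM scaling, 14 with DESeq2, 22 with no count filter, 11 with 2 arms, 31 without the 2 h libraries, 5 without the 8 h libraries and 0 to 36 with each library left out in turn. That of JQ1 called 0, 13 with 2 arms and 0 to 1 with a library left out. For slopes of total RNA AZ-5576 minus DMSO called 42, 13 without the 8 h libraries and 18 to 44 with a library left out. JQ1 minus DMSO called 7, 16 with 2 arms, 1 without the 4 h libraries, 0 without the 8 h libraries and 0 to 16 with a library left out. AZ-5576 minus JQ1 called 36, 7 without the 8 h libraries and 10 to 40 with a library left out.

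The labelled slope in DMSO was called for 46, for 3 without the 8 h libraries and for 16 to 50 with a library left out. The labelled difference of AZ-5576 from DMSO was called for 1, for 5 with TMM scaling, 2 with DESeq2, 5 without the 2 h libraries, 0 without the 4 h or the 8 h libraries, 2 with pseudogene reads added and 0 to 4 with a library left out. That of JQ1 was called for 0 members under every alternative run. Leaving out libraries also leaves fewer samples to fit, and the cause of the other shifts was not tested.

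With TMM scaling the AZ-5576 slope difference turned to 0.13 for EEF1A1, 0.085 for EEF2, 0.074 for EIF1, 0.0052 for EIF2S1, 0.0076 for EIF3J, 0.0061 for EIF4EBP2, 0.079 for EIF5, 0.026 for EIF6, 0.029 for ETF1, 0.14 for PABPC1 and 0.033 for PABPC4, the labelled slope of EEF1A1 in DMSO to 0.15, and AZ-5576 minus JQ1 to 0.061 for EIF4E and 0.077 for EIF4G1. Without the 8 h libraries AZ-5576 minus JQ1 turned to 0.036 for EIF4E and 0.0083 for EIF4G1. Of 41 single-gene results, scaling on fly genes left the call and direction of all 41, and DESeq2 those of 40. No paired analysis was possible because each condition has 1 library and so no replicate numbers to pair, and the mean-difference model already matches the arms by time.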

Other observations

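Most listed enzymes and regulators around the translation factors were called lower under AZ-5576 per fly read. Of 37 listed genes, among them the eIF2 kinases, the ribosome recycling factor ABCE1, the 4E kinases and the TOP mRNA repressor LARP1, 35 were tested in total RNA. The AZ-5576 slope was called lower than DMSO per fly read for 32 of the 35 (median -0.23 log2 per hour), against 73.3% of all genes, and the list was made with earlier results known. JQ1 was called lower for EIF2AK2, EEF1AKMT2, EEF1AKMT3, DOHH, LARP1, PAIP1, DENR and ABCE1 and higher for MKNK2. Of all genes 16.2% were called lower and 1.79% higher in JQ1. In labelled RNA AZ-5576 was lower for PPP1R15A, the phosphatase subunit that restores eIF2, by edgeR's quasi-likelihood test (1.22% of all genes). By the same test JQ1 was lower for PELO, which rescues stalled ribosomes (0.352% of all genes). These directions are per fly read. With TMM scaling the AZ-5576 slope was lower for 14 and higher for 4 of the 35 (9 and 21 of the 57 translation factors). Of all genes 27.6% were lower and 20.6% higher. The JQ1 slope was then lower for LARP1 and ABCE1 (7.72% of all genes) and higher for MKNK1, MKNK2, PAIP2 and DDX3X (5.49%). The labelled call of PPP1R15A stayed with TMM scaling while that of PELO was lost.

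The E-box CACGTG, the letters bound by MYC with its partner, stood in the 300 bases around the annotated start of 10 of 50 members with a window (20.0%), against 13.3% of tested genes with a window and 8.77% of all 27305 genes with a window. It reads the same on both strands. The JQ1 slope was called lower for 3 of these 10 members and higher for 1, and lower for 3 of 36 tested members without it. EIF4B, EIF4E and EIF4G1 were the lower ones with the letters. EIF4B was not called with TMM scaling, and EIF4G1 also has annotated starts without the letters. All JQ1 calls of the members were lost without the DMSO 8 h library. Outside the members 24.7% of 1073 tested genes with the letters were called lower and 17.2% of 7001 without them. A link between the letters and the JQ1 slope was not tested.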
